A study of Homo sapiens with 16 samples.

Results

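Of 19962 protein-coding genes, 9 were followed because they are linked to the vitamin A-storing state of hepatic stellate cells (HSCs). They comprise 6 retinoid genes (LRAT, CRABP2, ALDH1A1, ALDH1A2, RDH10 and STRA6) and 3 lipid droplet genes (PLIN2, PLIN3 and PNPLA2). They were picked by symbol for their known function, with earlier results of these data already known. For each gene, the regions with altered acetylation of histone H3 at lysine 27 (H3K27ac, a mark of active promoters and enhancers) that shared at least 1 base with the gene body or lay within 100 kb of its 5′ end were collected. This gave 14 regions, 5 lost and 9 gained, of 7130 regions listed for the whole genome. The cells were LX-2, an established human HSC line with a myofibroblastic phenotype, and all libraries came from this 1 line. The regions came from chromatin immunoprecipitation and sequencing (ChIP-seq) of 4 control libraries (vehicle, DMSO, in the labels, whereas the study's text calls such cells not treated) and 4 libraries from cells given the O-GlcNAc transferase inhibitor OSMI-1 (hereafter OGTi) at 50 µM, both for 24 h. The labels call these biological replicates. The remaining 8 of the 16 samples (input DNA and column purified chromatin) were not analysed here, although the authors called peaks against input DNA. Each list gives the chromosome, start and end of its regions on hg38, so that no H3K27ac level per sample, no size of change and no replicate spread can be shown for any region, and the read depth behind them is unknown.

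Quiescent HSCs hold most of the body's vitamin A, as retinyl esters packed in cytoplasmic lipid droplets, and these droplets are lost when the cells turn into myofibroblasts. STRA6 is a cell-surface receptor that takes up retinol from its carrier in blood, LRAT joins retinol to a fatty acid for storage, RDH10 oxidises retinol to retinal, ALDH1A1 and ALDH1A2 turn retinal into retinoic acid, and CRABP2 carries retinoic acid to its receptors in the nucleus. PLIN2 and PLIN3 coat lipid droplets, and PNPLA2 (also named adipose triglyceride lipase) starts the breakdown of the stored triglycerides.

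None of the 9 genes had a lost or gained region within 2500 bp of its 5′ end. For comparison, 1.96% of protein-coding genes had a lost region and 6.41% a gained region in that window. Within the wider window (gene body or 100 kb), 3 of 9 members had a lost region (CRABP2, ALDH1A2 and STRA6), where 21.7% of protein-coding genes did, and 4 of 9 had a gained region (CRABP2, ALDH1A1, ALDH1A2 and PLIN2), where 30.6% did. CRABP2 and ALDH1A2 had regions of both kinds, as did 7.23% of all genes. LRAT, RDH10, PLIN3 and PNPLA2 had none, as did 55.0% of protein-coding genes. The shares of members with lost and gained regions (33.3% and 44.4%) were above those of all genes by little more than 1 gene of 9 each, which with so few genes shows nothing particular to the retinoid and lipid droplet set. They also depended on the annotation, since with the canonical transcript of each gene 2 members had a lost region (CRABP2 and STRA6) and 2 a gained one (CRABP2 and PLIN2). The shares of all protein-coding genes with canonical transcripts are not given here, so these counts have no background beside them.

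**Figure D1:**
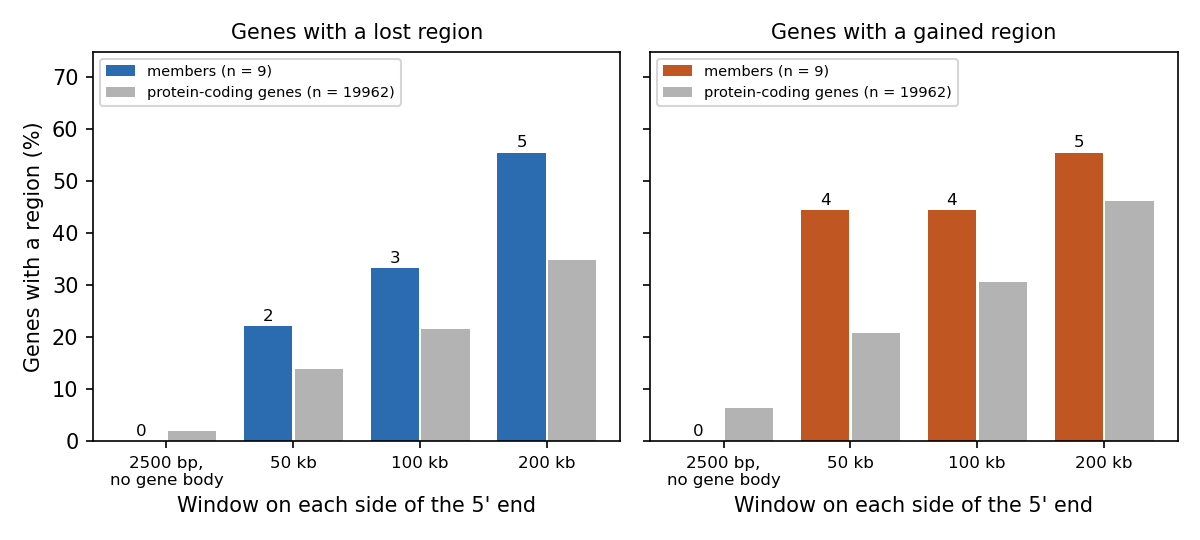
Share of genes (%, vertical axis) with at least 1 lost (left) or gained (right) region, for windows of 2500 bp (5′ end alone) and of 50, 100 and 200 kb around the 5′ end with the gene body added. Coloured bars are the 9 members, with the number of members above each bar, and grey bars all 19962 protein-coding genes; no member had a region within 2500 bp, and at 100 kb 3 members had a lost and 4 a gained region.

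The distance from the 5′ end to the edge of the nearest lost region had a median of 171 kb over the members (28.0 to 3724 kb) and of 360 kb over all protein-coding genes. For gained regions the medians were 143 kb (34.2 to 2151 kb) and 235 kb. These values rest on the outermost annotated 5′ ends. From the 5′ ends of canonical transcripts, a choice made after seeing the data, the medians for lost regions were 280 kb over the members and 360 kb over all genes, and those for gained regions 242 kb and 236 kb, so that the gained regions were then no nearer to the members. The members spanned a median of 32.8 kb, against 27.5 kb, and had a median of 4.0 other protein-coding 5′ ends within 100 kb, against 3.0.

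**Figure D2:**
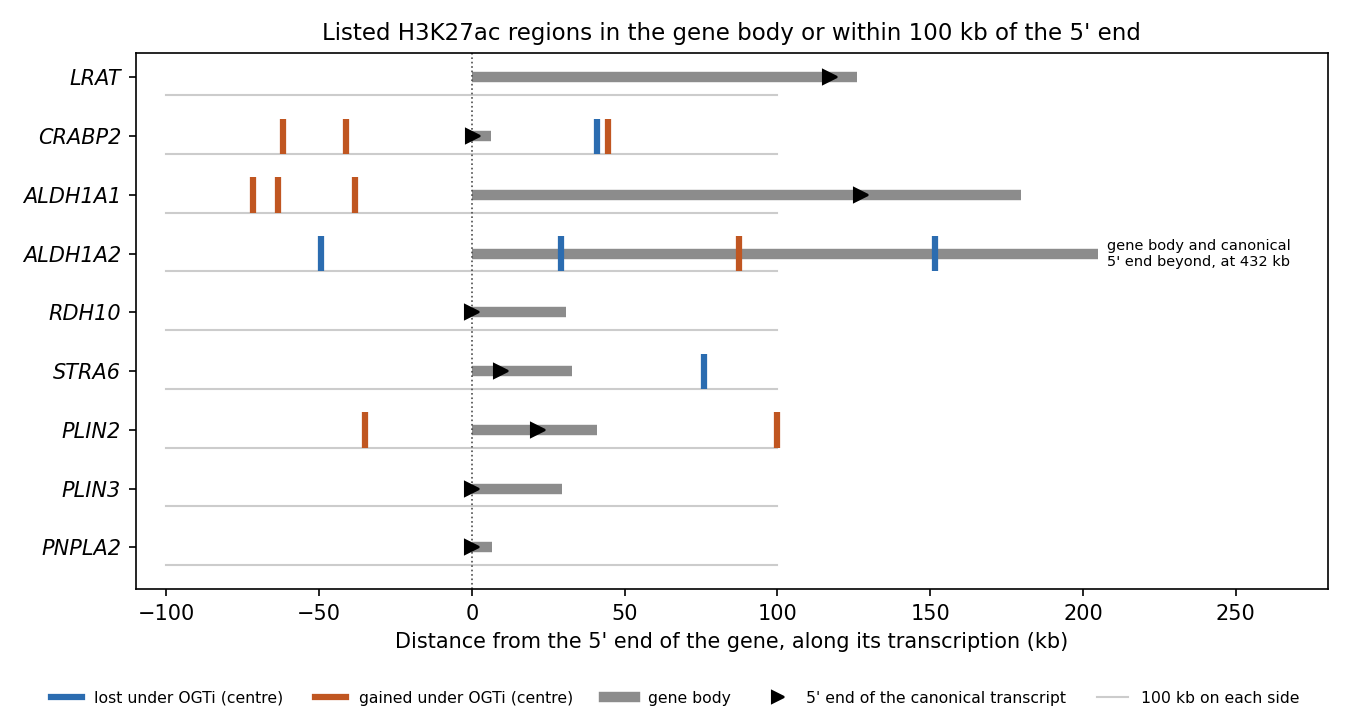
Position of the 14 regions (blue lost, orange gained, drawn at their centres and not to width) along the 9 genes, in kb from the 5′ end of each gene in the direction of its transcription. Grey blocks are gene bodies (that of ALDH1A2 is truncated), arrowheads the 5′ ends of canonical transcripts and thin lines the 100 kb window; the 3 gained regions at ALDH1A1 all lie upstream, and LRAT, RDH10, PLIN3 and PNPLA2 are empty.

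Among the retinoid genes, ALDH1A2 (chromosome 15, minus strand, 57953424 to 58497866) was the only member with regions in its gene body. Of its 4 regions, 3 were lost and 1 gained. The lost region nearest to the 5′ end (58467267 to 58469840, 2574 bp) began 28.0 kb downstream of it in intronic sequence, and overlapped no exon of any gene. A narrow lost region of 450 bp (58346015 to 58346464) lay deeper in the gene, 151 kb from the 5′ end, also in an intron. The widest, of 3596 bp (58545273 to 58548868), lay 47.4 kb upstream and overlapped an exon of LIPC, which encodes hepatic lipase. The gained region (58410215 to 58410810, 596 bp) covered the 5′ end of LIPC itself, within an intron of ALDH1A2 on the opposite strand. Of the 4 regions, 2 lay where the annotated ALDH1A2 and LIPC genes overlap, 1 in ALDH1A2 alone and 1 in LIPC alone, and no further listed region lay within 50 kb of any of them. To show the intronic DNA that lost H3K27ac nearest to the 5′ end of ALDH1A2, 300 bases centred on that region (chr15:58468404-58468703, hg38, plus strand) are given.
ALDH1A2 lost region: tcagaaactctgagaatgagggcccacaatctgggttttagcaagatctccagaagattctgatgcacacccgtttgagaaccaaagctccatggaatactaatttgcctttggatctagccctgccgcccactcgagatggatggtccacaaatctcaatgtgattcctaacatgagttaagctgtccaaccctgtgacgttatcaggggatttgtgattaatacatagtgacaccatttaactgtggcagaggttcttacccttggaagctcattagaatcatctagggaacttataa

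The placement of these regions at ALDH1A2 rests on transcripts that begin upstream of the canonical one. The 5′ end of the gene in GENCODE was that of 1 of its 25 transcripts, whereas the transcript marked as canonical by Ensembl, with the same 5′ end as in RefSeq, began 432 kb further downstream. From that 5′ end the nearest listed region was 280 kb away, and none of the 4 regions fell within the canonical transcript. With the canonical transcript in place of the gene, ALDH1A2 therefore had no region. However, 14 of the 25 transcripts began more than 1 kb upstream of the canonical 5′ end. An ALDH1A2 transcript began 4.07 kb from the lost region of 2574 bp, and another 14.4 kb from that of 450 bp.

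ALDH1A1 (chromosome 9, minus strand, 72900671 to 73080442) had gained regions only, all upstream. They measured 476 bp, 1694 bp (73143131 to 73144824) and 2000 bp (73151027 to 73153026), at 38.1, 62.7 and 70.6 kb from the 5′ end. The last covered the 5′ end of ANXA1, the gene of the phospholipid-binding protein annexin A1, and ANXA1 was the nearest protein-coding gene for all 3. These regions lay within 50 kb of each other and were low in GC (31.1%, 34.3% and 34.3%), with a CpG observed/expected ratio of 0.0, 0.0604 and 0.137. The nearest lost region was 524 kb away. As for ALDH1A2, the 5′ end belonged to a minority of transcripts (2 of 7 within 1 kb of it). The canonical transcript began 127 kb downstream, which placed the nearest gained region 165 kb from its 5′ end and outside the window.

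CRABP2 (chromosome 1, minus strand, 156699606 to 156705816), a short gene of 6.21 kb, had 1 lost and 3 gained regions, none in its body. Downstream of the gene, a gained region of 1602 bp (156660383 to 156661984) and the lost region of 1583 bp (156663985 to 156665567) lay 43.8 and 40.2 kb from its 5′ end. Exactly 2000 bp separated them, the bin size that the authors set for cutting wide peaks. Of 1232 adjacent pairs with centres under 5000 bp apart, 8 (0.649%) were of opposite direction. Abutting regions are included among these pairs, so the share does not measure how rare such pairs are when a gap separates them. Both regions were nearest to the gene 5′ end of NES, which encodes the intermediate filament protein nestin (15.4 and 11.8 kb), with 5′ ends of BCAN transcripts at 3.65 and 7.26 kb. The gained one overlapped an exon of the non-coding antisense gene BCAN-AS2, and the lost one no annotated gene. GC content was nearly equal in the pair, at 55.6% and 55.9%. Their centre windows are set side by side because they changed in opposite directions 3593 bp apart (chr1:156661034-156661333 and chr1:156664627-156664926, hg38, plus strand). The capitals mark a CCAAT box on the minus strand of the gained window, and the lost window had no match to any motif searched.
CRABP2 gained region: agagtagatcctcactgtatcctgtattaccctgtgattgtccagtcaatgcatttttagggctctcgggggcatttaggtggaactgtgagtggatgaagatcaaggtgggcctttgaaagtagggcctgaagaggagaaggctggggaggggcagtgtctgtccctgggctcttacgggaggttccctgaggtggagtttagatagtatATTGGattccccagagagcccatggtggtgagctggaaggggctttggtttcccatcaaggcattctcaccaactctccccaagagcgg
CRABP2 lost region: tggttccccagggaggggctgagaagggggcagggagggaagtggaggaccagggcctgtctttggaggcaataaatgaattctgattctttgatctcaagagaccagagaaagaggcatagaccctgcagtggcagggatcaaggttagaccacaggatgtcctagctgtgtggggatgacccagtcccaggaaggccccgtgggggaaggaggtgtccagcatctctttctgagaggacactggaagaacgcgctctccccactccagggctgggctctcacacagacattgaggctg

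Upstream of CRABP2, a gained region of 1820 bp (156746182 to 156748001) lay at 40.4 kb, inside HDGF and over the 5′ end of one of its transcripts. Another of 1793 bp (156766593 to 156768385) lay at 60.8 kb, over the 5′ ends of HDGF, a heparin-binding growth factor gene, and of PRCC transcripts. The latter had a CpG ratio of 0.601, against a median of 0.247 in the gained list. Between 2 and 7 other protein-coding 5′ ends were closer to the centre of these 4 regions than that of CRABP2. CRABP2 and its canonical transcript share nearly the same 5′ end (0.233 kb apart), so that its regions did not depend on the choice of transcript.

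STRA6 (chromosome 15, minus strand, 74179466 to 74212267) had a single lost region of 886 bp (74135903 to 74136788), 75.5 kb downstream of its 5′ end. It overlapped an exon and UTR of ISLR2, a neighbouring gene of a membrane protein with immunoglobulin and leucine-rich repeats, and lay 4.00 kb from the 5′ end of one of the ISLR2 transcripts. With 64.9% GC and a CpG ratio of 0.893, it was the most GC- and CpG-rich of the 14 regions (medians of the lost list, 46.8% and 0.202). No further listed region lay within 50 kb.

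Of the lipid droplet genes, only PLIN2 (chromosome 9, minus strand, 19108375 to 19149290) had listed regions, both gained. One of 1420 bp (19183534 to 19184953) lay 34.2 kb upstream in intergenic sequence, with 43.5% GC, and PLIN2 was the protein-coding gene with the nearest 5′ end. The canonical transcript of PLIN2, with the RefSeq 5′ end, began 21.8 kb further downstream, from where the region was 56.0 kb away. The other, of 1334 bp (19048621 to 19049954), was just inside the window at 99.3 kb, its centre lay beyond 100 kb, and it covered 5′ ends of RRAGA and SAXO1 transcripts (CpG ratio 0.826). The upstream region was the only one of the 9 gained regions with a member as the nearest gene, and the 300 bases at its centre (chr9:19184094-19184393, hg38, plus strand) contained no match to the motifs searched.
PLIN2 gained region: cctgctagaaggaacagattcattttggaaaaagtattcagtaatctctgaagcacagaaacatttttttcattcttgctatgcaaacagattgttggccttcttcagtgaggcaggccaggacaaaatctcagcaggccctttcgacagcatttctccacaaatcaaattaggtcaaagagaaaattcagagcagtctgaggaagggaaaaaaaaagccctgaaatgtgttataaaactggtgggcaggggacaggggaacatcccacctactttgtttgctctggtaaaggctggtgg

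The distances to other genes were compared for all 14 regions. In 3 cases, the upstream region of PLIN2 and 2 lost regions at ALDH1A2, the member had the nearest protein-coding 5′ end. In the other 11, a different gene was nearer. These cases rest on the outermost 5′ end of each gene. By the 5′ ends of single transcripts, the member was again nearest in 3 cases, but not the same ones. The lost region upstream of ALDH1A2 was then nearest to LIPC (3.53 kb), and that of 450 bp to ALDH1A2 (14.4 kb). Regions lay 28.0 to 151 kb from the 5′ end of the member (median 54.1 kb), 7 upstream and 7 downstream. A 5′ end of a protein-coding transcript lay inside 5 of the 14 regions, all of them gained, and none belonged to a member. Within 2500 bp of the 5′ end of a protein-coding gene were 4 of the 9 gained regions and 0 of the 5 lost ones, beside 30.97% and 11.1% in the whole lists.

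**Figure D3:**
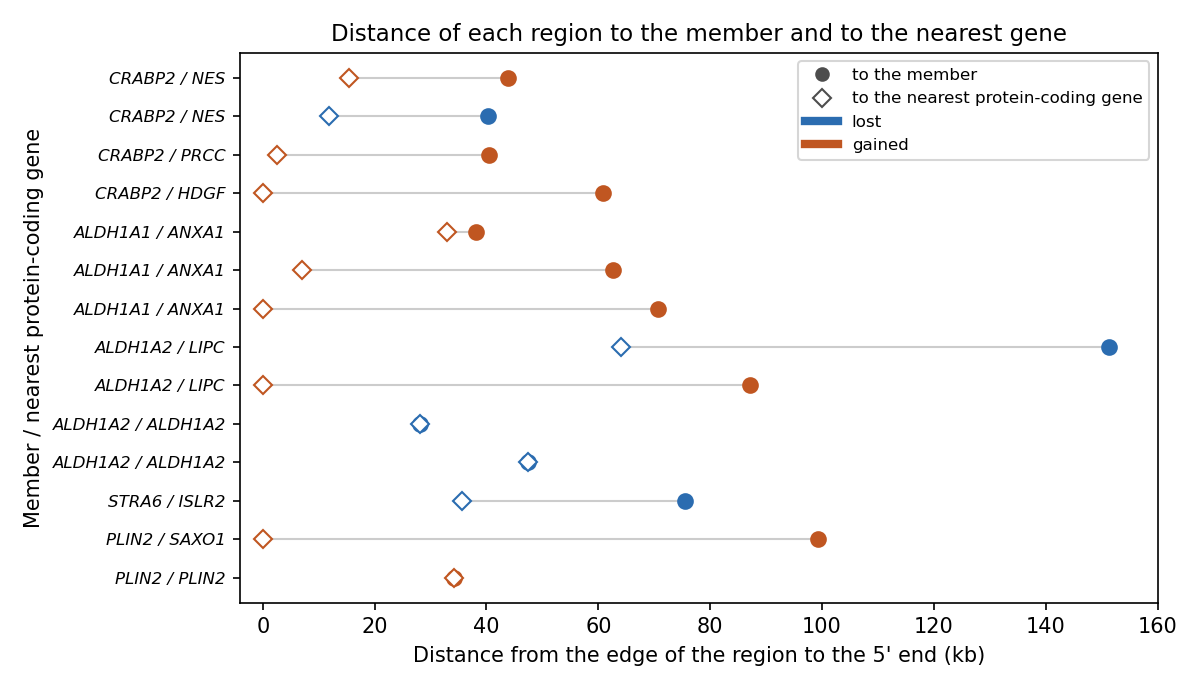
Distance (kb) from the edge of each of the 14 regions to the 5′ end of the member (filled circles) and to the nearest 5′ end of any protein-coding gene (open diamonds), blue for lost and orange for gained regions. Each line is a region, named by the member and the nearest gene; the symbols coincide for 3 regions, and 4 gained regions have a distance of 0 to another gene.

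Widths and base composition varied widely among these regions. The 5 lost regions had a median width of 1583 bp (450 to 3596 bp) and a median GC content of 51.1% (47.6% to 64.9%), and the 9 gained regions 1602 bp (476 to 2000 bp) and 44.3% (31.1% to 57.8%). The whole lists had medians of 1905 bp and 46.8% for lost and 1697 bp and 46.1% for gained regions. The lowest GC contents were those of the 3 regions between ALDH1A1 and ANXA1, and the highest that of the lost region at ISLR2.

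Motifs were searched on both strands of the 300 bases at the centre of each region. No window at a member had a direct repeat retinoic acid response element with 5 or 2 bases between its half-sites, nor the DR1 element. Such matches were present in 0.0701%, 0.449% and 0.126% of the same windows of all listed regions. The TEAD core CATTCC was present in 1 of 14 windows, that of the gained region inside HDGF, and in 21.1% of all windows. AP-1 (TGACTCA, 12.5% of all windows), the ATF4-C/EBP composite (TGATGCAA, 2.05%), the E-box CACGTG (4.21%) and the SRF motif (2.58%) had no match. CCAAT was matched in 7 of 14 windows, 2 lost and 5 gained, and in 32.1% of all.

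The RefSeq promoters of the members (250 bases before to 50 after the start) were examined in the same way, although no listed region lay at any of them. Of the 9 members, 8 were found in the promoter table, all except RDH10. CCAAT was present in those of LRAT, ALDH1A1, ALDH1A2 and PLIN3 (4 of 8, and 34.6% of 35116 promoters), CACGTG in that of PLIN2 (1 of 8, and 7.26%) and the SRF motif in that of LRAT (1 of 8, and 1.29%). TEAD core, AP-1, ATF4-C/EBP, DR5, DR2 and DR1 matches were absent from all 8, and were present in 14.0%, 4.95%, 0.866%, 0.0883%, 0.0399% and 0.131% of all promoters. A match or its absence in these letters says nothing on whether a factor was bound.

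The members without any region differed in how far away the nearest one lay. For PNPLA2 (chromosome 11, 818914 to 825573), a lost region of 2834 bp over the 5′ end of DEAF1 (705511 to 708344) was 111 kb upstream, the nearest region outside the window of any member. For PLIN3 (chromosome 19, 4838341 to 4867694), a gained region of 2358 bp (4722254 to 4724611) in DPP9, 0.062 kb from its 5′ end, lay 143 kb downstream. RDH10 was 677 kb from a gained region over the 5′ end of ELOC, and 3724 kb from the nearest lost one. LRAT (chromosome 4, 154626945 to 154753120) was the most isolated, with its nearest region, a lost one of 1020 bp in TRIM2 (153248775 to 153249794), 1377 kb upstream and its nearest gained region 2151 kb away. Since the canonical transcript of LRAT begins 117 kb into the annotated gene, it lay 1494 kb from the same region. Absence from the lists means that no region there passed the authors' threshold, which the list names give as an adjusted p of 0.15 and the methods text as 0.05, and cannot be told apart from the absence of an H3K27ac peak.

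To place the members within their pathways, 89 other genes of retinoid and lipid droplet metabolism were counted in the same window. A lost region was found for 19 of them (21.3%), a gained one for 23 (25.8%), both for 5 and none for 52. Retinoid genes (38) had a lost region in 9 cases (23.7%) and a gained one in 7 (18.4%), and lipid genes (51) in 10 (19.6%) and 16 (31.4%). These shares were near the 21.7% and 30.6% of protein-coding genes for lost regions and, among lipid genes, for gained ones, and lower for gained ones among retinoid genes, a difference that was not tested.

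**Figure D4:**
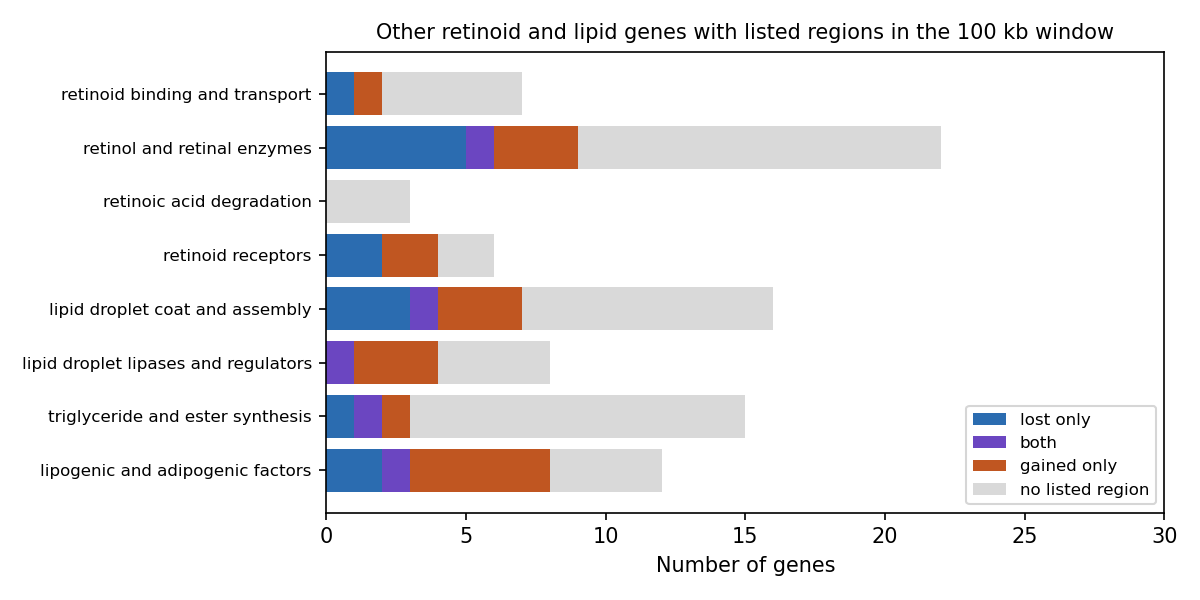
Number of genes (horizontal axis) in 8 lists of other retinoid and lipid genes with lost regions only (blue), gained regions only (orange), both (purple) or no listed region (grey) in the gene body or within 100 kb of the 5′ end. Every list but that of the 3 retinoic acid-degrading enzymes holds genes with regions, and 52 of the 89 genes have none.

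The 3 CYP26 genes, which encode the enzymes that clear retinoic acid, had no listed region. Of the 6 retinoid receptor genes, RARA and RXRB had lost regions, RARG and RXRA had gained ones, and RARB and RXRG had none. Carriers had 1 gene with lost and 1 with gained regions of 7. Of 22 enzymes of retinol and retinal, 6 had lost and 4 gained regions (27.3% and 18.2%, beside 21.7% and 30.6% of protein-coding genes). One of them, RDH11, which encodes a retinal reductase, had a gained region of 1018 bp at 0.011 kb from its 5′ end (chromosome 14, 67694765 to 67695782). RDH12 was counted among the 4 for this same region, 6.10 kb upstream of its 5′ end.

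Regions at the 5′ end were otherwise found among the lipid genes, with 1 of 51 genes having a lost and 5 of 51 a gained one, against 1.96% and 6.41% of all protein-coding genes. With so few genes, these counts are a description and show nothing particular to the lipid genes. Regulators of the lipase PNPLA2 were among them, although PNPLA2 itself had no region. G0S2, an inhibitor of PNPLA2, had 2 abutting gained regions on chromosome 1 (209673048 to 209674625 and 209674626 to 209676029), the latter over its 5′ end. ABHD5, the coactivator of PNPLA2, had a gained region of 645 bp at 0.839 kb downstream of its 5′ end (chromosome 3, 43690947 to 43691591), which lay 0.003 kb from the 5′ end of ANO10. Of the 8 lipases and regulators, 4 had gained regions in the 100 kb window and 1 of these also lost ones (50.0% and 12.5%). Among all protein-coding genes, 30.6% and 21.7% did, and with 8 genes the difference shows nothing particular to this list.

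Further gained regions lay over the 5′ ends of CEBPB (chromosome 20, 50190434 to 50193333, 2900 bp), which encodes an adipogenic transcription factor, and of SREBF2 (chromosome 22, 41831506 to 41834441, 2936 bp), the regulator of cholesterol synthesis. ACSL3, an acyl-CoA synthetase of growing lipid droplets, had one of 208 bp 0.635 kb upstream (chromosome 2, 222860100 to 222860307). In contrast, CEBPD, a paralogue of CEBPB, had a lost region of 2689 bp 0.496 kb downstream of its 5′ end. Of the 12 lipogenic and adipogenic factors, 3 had lost and 6 gained regions (25.0% and 50.0%). In the same window, 21.7% and 30.6% of protein-coding genes did. With so few genes, these shares show nothing particular to this list. PPARG, which drives adipogenesis and is linked to HSC quiescence, had no region in the window, the nearest being a lost one 471 kb downstream. Of 16 genes of the lipid droplet coat and assembly, 4 had lost and 4 gained regions, and of 15 genes of triglyceride and ester synthesis 2 and 2. Among the coat genes, PLIN4 and PLIN5 were both counted for the same lost region.

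Genes linked to the stellate and myofibroblastic states were counted in the same window, where 21.7% of protein-coding genes had a lost region and 30.6% a gained one. PDGFRB, the platelet-derived growth factor receptor of HSCs, had 5 lost regions, COL1A1, a fibrillar collagen gene, 4 lost and 2 gained, DES, the intermediate filament desmin, 2 lost and ACTA2, smooth muscle actin, 1 lost. LRAT, the retinoid-storing marker of the same list, had 0. Within 2500 bp of the 5′ end, PDGFRB had 1 lost region, COL1A1 had 2, and DES, ACTA2 and LRAT had 0. Without H3K27ac levels, these counts do not describe the state of the cells.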

How the data were processed

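According to the study's methods, the authors aligned reads to hg38 with Chromap, called peaks per library against input DNA with MACS2 (version 2.1.1.20160309 in the submitters' processing notes), and tested the 8 H3K27ac libraries together with MAnorm2, which divides wide peaks into bins of typically 2000 bp. The 2 lists deposited by the authors hold 3 columns and no other values (chromosome, start and end), for regions at the adjusted p of 0.15 in the list names (0.05 in the methods text, and which was applied could not be settled from the positions). They hold 3507 lost and 3623 gained regions, the same numbers that the study reports for significant loss and gain.

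Starts were converted to count from 1. Genes came from GENCODE release 44 (chromosomes 1 to 22 and X), whereas the study used an earlier release. RefSeq promoter sequences of 8 members were identical to hg38 at their coordinates. A region was given to a gene if any base lay in its body or within 100 kb of its 5′ end, and the assignment was tested on simulated data. Python 3.11.15, pandas 2.3.3 and pysam 0.24.0 were used. Counts were set beside those of all protein-coding genes, and no test was made, because the lists hold no replicate values. The members and gene lists were chosen with earlier results of these data known. Named genes are the members, other list genes with a region within 2500 bp of the 5′ end, PPARG, and the gene with the 5′ end nearest to a region at a member. Other genes (such as the receptors, the CYP26 genes, BCAN, RRAGA, ANO10, and those nearest to members without regions) were named after their values were seen. Alternatives changed the window, the 5′ end, the overlap and the joining of bins. The sequence of the region nearest to ALDH1A1 is not reported here.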

Additional observations from a re-analysis of the deposited data

How the results depend on the processing

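No paired analysis was possible because the region lists used here give positions alone, so that single replicates could not be left out either, and a stricter threshold could not be set. Of 40 counts over the members under alternative settings, 23 stayed within 1.5 times the value reported (3 members with a lost and 4 with a gained region, 5 lost and 9 gained regions) and 17 did not. With the gene body and 2500 bp in place of 100 kb, the counts were 1 and 1 member with 2 lost and 1 gained region, all at ALDH1A2. The shares of protein-coding genes were then 6.94% and 11.3%. With 50 kb, gained regions numbered 5. With 200 kb, 5 members had a lost region, as did 34.9% of protein-coding genes, and lost regions numbered 10. When the member had to have the nearest protein-coding 5′ end, 1 member had a lost and 1 a gained region, with 2 lost and 1 gained region in all. With the Ensembl canonical transcript, and likewise with the RefSeq 5′ end (8 members, both chosen after seeing the data), 2 members had a gained region, with 2 lost and 5 gained regions, as ALDH1A1 and ALDH1A2 had none. For the nearest-gene, canonical and RefSeq settings, the shares of all protein-coding genes are not given here. Using the 5′ ends of all transcripts, the region centre, joined bins or no gene body changed no count over the members by more than 1.5 times. By region centre, however, gained regions at PLIN2 fell from 2 to 1. Of 178 counts for single members over all settings, 153 stayed within 1.5 times and 25 did not. What the unknown read depth did to the lists was not tested.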

Other observations

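These genes were singled out after their values were seen. PPARA, the fatty acid-oxidation receptor, had 7 listed gained regions, all 60.8 to 78.6 kb upstream of its 5′ end (chromosome 22, 46069905 to 46089702). Most of the 7 abut a neighbour without a gap, so they form fewer separate stretches. PPARA was the nearest protein-coding gene. RARA, the retinoic acid receptor alpha, had 4 lost regions, all inside the gene and 3.64 to 35.6 kb from its 5′ end (chromosome 17, 40312822 to 40346936). Those at 32.2 and 35.6 kb were nearer to the 5′ end of GJD3 (22.1 and 17.8 kb). LIPA, the lysosomal acid lipase, had 5 gained regions in its annotated body (chromosome 10, 89260538 to 89329391). They lay 85.2 to 151 kb from its outermost annotated 5′ end, and all were nearer to the 5′ ends of IFIT2 or IFIT3. Their place relative to shorter LIPA transcripts is not given here. CIDEB had 3 lost and 2 gained regions within 100 kb, none in its body and all nearer to other genes. The lost regions include abutting ones.

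Of the 8 adjacent pairs of opposite direction with centres under 5000 bp apart, 5 had exactly 2000 bp between them, the pair downstream of CRABP2 among them. The cause was not tested.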
